A study of Mus musculus with 2 samples.

Results

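The genes described here encode the soluble protein factors that run translation in the cytosol: initiation factors (Eif genes), elongation factors (Eef1 and Eef2 genes) and the main factors of termination, recycling and poly(A) binding. They were chosen by name from the deposited table, which gave 67 genes with at least 1 protein-coding transcript, of 45578 genes in all and 21874 with a coding transcript. The Y-linked Eif2s3y was left out. The values come from ribosome profiling of brain polysomes from 2 control mice at postnatal day 5. Both animals carried 1 disrupted copy of mouse Smn and a human SMN2 transgene (genotype Smn+/-; SMN2tg/0) on the FVB strain, and the labels call them biological replicates 1 and 2. No group without the Smn deletion or the transgene was analysed here, so each value below belongs to this genotype. Footprints were prepared from pooled polysome fractions, so single ribosomes outside that part of the gradient are not in these values.

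Translation starts when eIF2 brings initiator tRNA to the small ribosomal subunit, while eIF1, eIF1A, eIF3 and eIF5 hold that subunit ready to scan. The cap-binding complex of eIF4E, eIF4G and the helicase eIF4A recruits the mRNA. eIF5B then joins the large subunit, eEF1A delivers aminoacyl-tRNA, eEF2 moves the ribosome along, and eRF1 with eRF3 releases the protein at the stop codon. Neurons are known to control several of these steps through phosphorylation, of eIF2 by stress kinases, of eIF4E-binding proteins by mTOR and of eEF2 by its own kinase.

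The library of replicate 1 held 1866831 footprints and that of replicate 2 held 5261878. Footprints are the short mRNA fragments that ribosomes shield from nuclease. A level is given in CPM, the count scaled to the library total, and coding density is CPM per kilobase of coding sequence (CPM/kb), the scale on which genes are compared. With 3 counts taken as the limit, a gene without footprints could lie as high as 1.61 CPM in the first library or 0.570 in the second. Intervals and limits cover counting error only. The 6 neuronal markers had a summed level of 5314 CPM (replicate 1) and 4290 CPM (replicate 2), against 1401 and 1476 CPM for 5 astrocyte, 793 and 1089 CPM for 5 oligodendrocyte-lineage and 202 and 217 CPM for 5 microglial markers. Blood was present, with 5 red cell genes at 2484 and 1702 CPM. Of 4 muscle genes, Acta1 had 140 and 264 footprints, Ckm 3 and 4, Myh3 1 and 20 and Tnnt3 1 and 10. Of 4 liver genes, Alb had none in either library, Apob 0 and 2, Apoa1 1 and 6, and Ttr, which the choroid plexus also makes, 1087 and 1456.

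The 67 genes took 21578 footprints in replicate 1 and 60665 in replicate 2. Their share of the library was 1.156% for replicate 1, with an exact (Clopper-Pearson) 95% interval of 1.141 to 1.171%. It was 1.153% for replicate 2, with an interval of 1.144 to 1.162%, and the mean was 1.154% ± 0.00208 (SD, n = 2). The shares differed by less than counting error. Eef1a1, Eif4a1, Eef2, Eif4a2 and Eif5a, the 5 genes with the highest CPM, together held 37.5% of the members' footprints in replicate 1 and 35.9% in replicate 2. A mean count of at least 100 was reached by 58 genes and one of at least 10 by 65. Eif4e1b, with 0 footprints in replicate 1 and 1 in replicate 2, and Eif4ebp3, with 1 and 0, lay under 10.

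Median coding density was 86.1 CPM/kb over the 65 genes (quartiles 45.1 and 158.9). Over the 13317 coding genes with the same minimum count it was 23.9 CPM/kb (quartiles 9.04 and 61.8). The factors lay above the overall median in 56 cases and at or above its percentile 90 in 17, and 9 lay at or below the median. Across the 65 genes the order of coding density was nearly the same in both replicates (Spearman's rho 0.969), a description of 1 pair of libraries. The genes at or below the overall median were the kinases Eif2ak2, Eif2ak3 and Eif2ak4, the methyltransferase Eef2kmt, Eif2d, Eif4e3, Eif4ebp1, Eif4enif1 and Eif5a2.

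**Figure D1:**
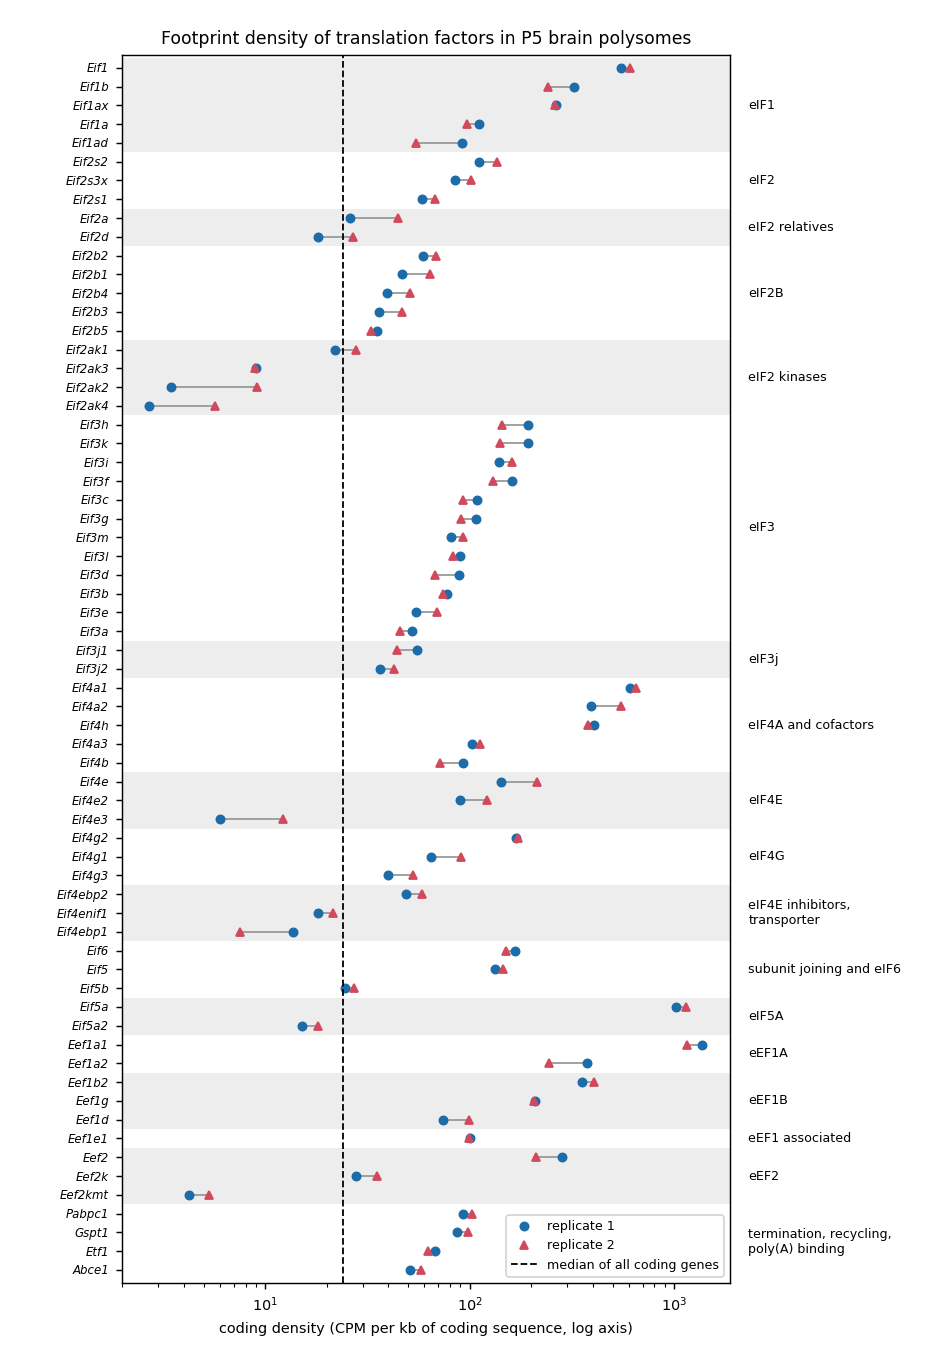
Coding density (CPM per kilobase of coding sequence, log axis) of the 65 factors above the count minimum, by role, with a circle for replicate 1 and a triangle for replicate 2. The dashed line is the median of 13317 coding genes at 23.9 CPM/kb; Eef1a1 and Eif5a lie highest, at means of 1265 and 1084 CPM/kb, and Eif2ak4 and Eef2kmt lie lowest, at means of 4.20 and 4.77 CPM/kb.

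The highest densities were those of Eef1a1, Eif5a, Eif4a1 and Eif1, in that order, and all 4 genes stood at or above percentile 98.8 of coding genes. This order rests on counting all transcripts of a gene. Where fewer transcripts were counted, CPM was scaled to the total of the transcripts kept, so genes with unchanged counts rise too. Eef1a2, with 1 transcript, had a mean of 309 CPM/kb with all transcripts counted. It had 408 with protein-coding transcripts alone and 599 with the highest transcript alone. Levels are thus to be compared within a setting, not between settings. With protein-coding transcripts alone Eif5a was highest at 1436 CPM/kb, above Eef1a1 at 729, and Eif4a1 was at 166. With the highest transcript alone the order began with Eef1a1 at 600.4, Eef1a2 at 599, Eif1b at 548 and Eef2 at 478. Eef1a1, which encodes the main carrier of aminoacyl-tRNA to the ribosome, had a coding density of 1374 CPM/kb in replicate 1 and 1155 in replicate 2, a mean of 1265 ± 154 CPM/kb (SD, n = 2) and percentile 99.8 of coding genes. Eef1a2, its paralog known to take over in mature neurons and muscle, had 373 and 245 CPM/kb. The ratio of Eef1a1 to Eef1a2 in coding density was 3.68 in replicate 1 and 4.72 in replicate 2, a mean of 4.20 ± 0.735. That ratio depended on how the 8 annotated transcripts of Eef1a1 were counted, since Eef1a2 has 1. It was 1.83 with protein-coding transcripts alone and 1.02 with the highest transcript of each gene. Fragments of the 2 coding sequences, and of Eef1a1 and its processed pseudogenes, can be alike, so both levels are uncertain to that extent. Muscle markers beside Eef1a2 summed to 77.7 CPM in replicate 1 and 56.6 in replicate 2, nearly all from Acta1 at 74.99 and 50.2 CPM. In a bulk brain, fewer cells of a type and less RNA per cell cannot be told apart.

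The exchange complex eEF1B reloads eEF1A with GTP. Its alpha subunit gene Eef1b2 had a coding density of 352 CPM/kb in replicate 1 and 404 in replicate 2, and the gamma subunit gene Eef1g had 209 and 206. Eef1d, the delta subunit gene, had 74.0 and 99.2 CPM/kb on a coding length of 1983 nucleotides. The fold from highest to lowest was 4.37 ± 0.485 (SD, n = 2), with 4.76 in replicate 1 and 4.07 in replicate 2.

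The low density of Eef1d rested on which isoform gave its length. Its table entry holds 3 coding transcripts of over 1500 nucleotides of coding sequence, the long form known from brain and testis, and 12 of at most 846. The long group held 127 of 274 footprints in replicate 1 (46.4%) and 420 of 1035 in replicate 2 (40.6%). Exons common to both forms can give footprints to either group. Divided by 846 nucleotides, the gene's level would give 173 and 233 CPM/kb, a mean of 203 ± 41.7, which lies beside Eef1g. Counting protein-coding transcripts alone, the eEF1B fold was 1.73 and Eef1g was the lowest, and with the coding length weighted by footprints, chosen after the data were seen, it was 2.92.

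Eef2, the translocase, had a coding density of 282 CPM/kb in replicate 1 and 210 in replicate 2 (mean 246 ± 51.3). The summed density of Eef1a1 and Eef1a2 was 6.43 ± 0.344 times that of Eef2, with 6.19 in replicate 1 and 6.68 in replicate 2. It was 3.51 with protein-coding transcripts alone and 2.51 with the highest transcript alone. Eef2k, the kinase that inhibits eEF2, had 31.5 ± 5.16 CPM/kb, and Eef2kmt, which methylates eEF2, had 4.77 ± 0.727. Eef1e1, whose protein sits in the multi-synthetase complex, had 99.6 ± 0.569 CPM/kb.

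Eif5a encodes a small protein that carries the modified residue hypusine and helps ribosomes through difficult peptide bonds. Its coding density was 1024 CPM/kb in replicate 1 and 1144 in replicate 2, and all 13 of its transcripts are annotated as coding. Eif5a2, the paralog, had 15.1 and 18.1 CPM/kb, from 13 and 44 footprints. The ratio was 65.6 ± 3.37, and the same with protein-coding transcripts alone. With the coding length weighted by footprints it was 67.1. With the highest transcript alone, which keeps 1 of the 13 transcripts of Eif5a, it was 6.17. In that setting Eif5a was at 199 and Eif5a2 at 32.6 CPM/kb.

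Windows around annotated start sites were taken from RefSeq (build GRCm38.p6), which matched 51 of the 67 genes; those without an entry were Eef1d, Eef1g, Eif1a, Eif2b3, Eif3e, Eif3h, Eif3i, Eif3j2, Eif4e1b, Eif4e3, Eif4ebp1, Eif4ebp3, Eif4g2, Eif6, Etf1 and Pabpc1. The 50 bases before and 50 after each start were searched for TATAAA and TATATA, the core of the TATA box, and for a run of at least 10 pyrimidines, as in the 5′ terminal tract known from mRNAs of the translation machinery. These motifs were chosen after the values were seen. On the gene's strand 3 of 51 members (5.88%), Eef1a1, Eef2 and Eif1, held TATAAA or TATATA, against 5.71% of 27025 genes. TATAAA alone was in 1 member (1.96%) and in 4.05% of genes. A pyrimidine run was found in 15 of 51 (29.4%), against 20.6% of genes. Of the 15, 6 encode eIF3 subunits (Eif3a, Eif3c, Eif3f, Eif3k, Eif3l and Eif3m). Among the 12 eIF3 subunit genes, Eif3e, Eif3h and Eif3i had no window, and Eif3b, Eif3d and Eif3g had a window without a run. A run anywhere in the 100 bases counted, so it need not lie at the 5′ end of the mRNA. Whether eIF3 genes differ from other members in this was not tested. On the opposite strand TATAAA was in 0 members and 2.12% of genes, and the run in 8 members (15.7%) and 21.2% of genes; TATATA reads the same on both strands. The stretches below show the match in capitals, at the 3 genes with TATAAA or TATATA and at Eif3f, 1 of the genes with a run. Counted from the annotated start, the match lies at bases 23 to 28 in Eef1a1 and 7 to 12 in Eif1, both after the start, and at -15 to -10 in Eef2. The run of 15 in Eif3f lies at -4 to 10. A match is a description of these letters, and an annotated start is not a measured one.
Eef1a1, chr9:78481684-78481713, minus strand: gggggagaacggTATATAagtgcggcagtc
Eef2, chr10:81176604-81176633, plus strand: ccggcgtcgaccTATAAAaggccgggcgtt
Eif1, chr11:100319944-100319973, plus strand: cacaggggcggcTATATAagtgaatacagg
Eif3f, chr7:108934404-108934433, plus strand: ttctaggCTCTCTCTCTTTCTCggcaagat

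eIF1 and eIF1A bind the small subunit and set the fidelity of start codon choice. Eif1 had a coding density of 550 CPM/kb in replicate 1 and 607 in replicate 2, and its paralog Eif1b had 323 and 242. For eIF1A, the X-linked Eif1ax had 264 and 261 CPM/kb and Eif1a had 111 and 96.6. Eif1 exceeded Eif1b by 2.11 ± 0.572 times (1.70 and 2.51) and Eif1ax exceeded Eif1a by 2.54 ± 0.229 times. With the highest transcript alone the first ratio turned to 0.875, with Eif1 at 476 and Eif1b at 548 CPM/kb, while Eif1ax stayed above Eif1a. These paralogs encode closely similar proteins, and fragments that match both can be split between them. Eif1ad, whose protein has an eIF1A-like domain, had 91.9 and 54.8 CPM/kb.

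eIF2 is a trimer of alpha, beta and gamma subunits. The beta subunit gene Eif2s2 had a coding density of 111 CPM/kb in replicate 1 and 136 in replicate 2, the gamma gene Eif2s3x 84.6 and 101, and the alpha gene Eif2s1 58.2 and 67.4. Neighbours in this order were apart in both replicates, and the fold from highest to lowest was 1.97 ± 0.0716 (SD, n = 2). The order was not kept with the highest transcript alone, where Eif2s1, which has 1 transcript, was highest at 123 CPM/kb and Eif2s2, which has 5, lowest at 80.9. Eif2a and Eif2d encode other proteins able to bring tRNA to the ribosome and had 35.2 ± 12.9 and 22.4 ± 6.08 CPM/kb.

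eIF2B, the exchange factor that recycles eIF2 and whose mutation causes a childhood white matter disease, has 5 subunits. Coding density was 63.8 ± 6.26 CPM/kb for Eif2b2, 55.2 ± 12.1 for Eif2b1, 45.1 ± 8.11 for Eif2b4, 41.1 ± 7.47 for Eif2b3 and 33.9 ± 1.59 for Eif2b5, the catalytic subunit gene. All neighbours in this order except Eif2b3 and Eif2b5 overlapped in their replicate values. The fold from highest to lowest was 1.88 ± 0.273, with 1.69 in replicate 1 and 2.08 in replicate 2. It was 1.25 with protein-coding transcripts alone and 3.96 with the highest transcript alone, and Eif2b5 was no longer lowest in either. Median density of the eIF2 genes was 2.07 ± 0.111 times that of the eIF2B genes, and 3.13 times with the highest transcript alone.

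Of the kinases that phosphorylate eIF2 under stress, 3 of 4 had densities under the overall median of coding genes, and Eif2ak1 lay at percentile 51.1. Eif2ak1, which encodes the kinase that senses heme, had 21.9 CPM/kb in replicate 1 and 27.7 in replicate 2. Eif2ak3, the kinase of the endoplasmic reticulum (PERK), had 8.97 and 8.92, from 56 and 157 footprints. Eif2ak2, the kinase activated by double-stranded RNA (PKR), had 3.46 and 9.08 CPM/kb, from 10 and 74 footprints. Eif2ak4, the kinase activated by uncharged tRNA (GCN2), had 2.71 and 5.69, from 25 and 148. Eif2ak2 overlapped in its replicate values with Eif2ak3 and with Eif2ak4, while both values of Eif2ak3 lay above both of Eif2ak4. Eif2ak1 lay above the other kinases in both replicates.

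eIF3 is the largest initiation factor, and its 12 stable subunits are thought to be present at 1 copy each. Their coding lengths run from 657 nucleotides for Eif3k to 4035 for Eif3a. Coding density was highest for Eif3h at 192 CPM/kb in replicate 1 and 143 in replicate 2, followed by Eif3k at 192 and 141, Eif3i at 139 and 162 and Eif3f at 161 and 130. These 4 overlapped as neighbours and were apart from Eif3c, the fifth, at 109 and 92.9. Eif3c, Eif3g, Eif3m, Eif3l, Eif3d and Eif3b followed with mean densities from 101 down to 75.6 CPM/kb, and each of them overlapped with the next. Eif3e was lower at 54.4 and 69.5 CPM/kb, and Eif3a, the scaffold subunit, was lowest at 51.9 and 45.4.

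The fold from the highest to the lowest eIF3 subunit was 3.44, computed from replicate means (Eif3h over Eif3a). Within single replicates it was 3.69 in replicate 1, again Eif3h over Eif3a. It was 3.56 in replicate 2, where Eif3i was the highest. The SD of log2 coding density over the 12 subunits was 0.58. The median SD between replicates was 0.24. It was taken from the scaled log2 ratios of the library comparison below and not from coding density. Longer subunit genes had more footprints, but less than in proportion to length. The slope of log2 count on log2 coding length was 0.43, where equal density gives 1 (Pearson's r 0.668, Spearman's rho 0.552, across 12 genes, which are not independent replicates). Density, in which length is the divisor, had a Spearman's rho of -0.713 with length over these subunits, beside -0.334 over the 65 factors and -0.453 over all 13317 coding genes. Eif3a was lowest also with protein-coding transcripts alone (fold 3.44), but with the highest transcript alone Eif3m, which has 4 transcripts, was lowest at 91.0 CPM/kb and Eif3h stayed highest at 325. The loosely bound eIF3j is encoded by Eif3j1 at 49.6 ± 7.92 CPM/kb and the similar Eif3j2 at 39.6 ± 4.38.

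**Figure D2:**
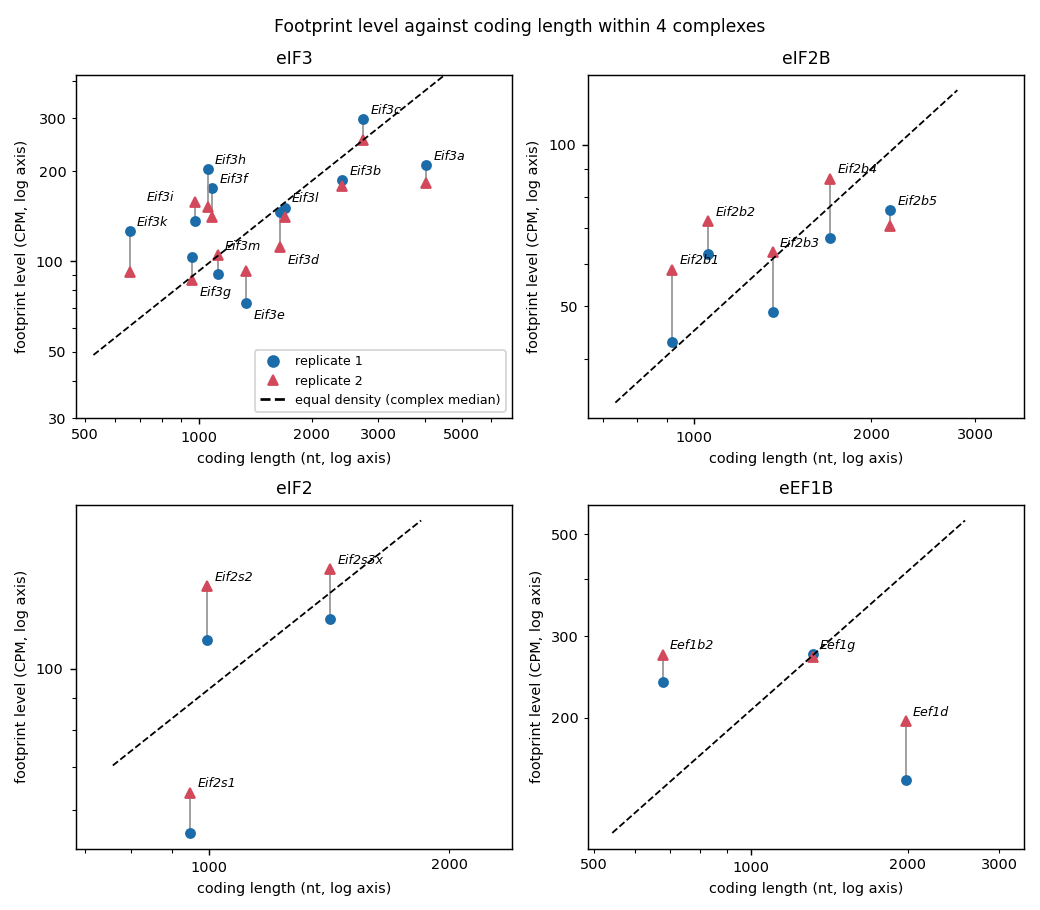
Footprint level (CPM, log axis) against coding length (nucleotides, log axis) for subunits of eIF3, eIF2B, eIF2 and eEF1B, with a circle for replicate 1, a triangle for replicate 2 and a line joining them. The dashed line marks equal density at the complex median; the short Eif3k, Eif3h, Eif3f and Eif3i lie above it and the long Eif3a lies below it.

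In the cap-binding machinery, the helicase gene Eif4a1 had a coding density of 611 CPM/kb in replicate 1 and 647 in replicate 2, and Eif4a2, the form known to be abundant in brain, had 391 and 552. The ratio of Eif4a1 to Eif4a2 was 1.37 ± 0.275. It turned to 0.678 with protein-coding transcripts alone and was 2.80 with the highest transcript alone, so which helicase gene is higher was not settled. Eif4a3, the related helicase of the exon junction complex, had 107 ± 6.52 CPM/kb. Of the helicase cofactors, Eif4h had 391 ± 17.6 and Eif4b 81.7 ± 14.8. Eif4h exceeded both Eif4a1 and Eif4a2 with protein-coding transcripts alone (368 CPM/kb) and with the highest transcript alone (279.8).

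Among scaffold genes, Eif4g2, whose protein lacks the eIF4E-binding region, had a coding density of 168 CPM/kb in replicate 1 and 172 in replicate 2. Eif4g1 had 64.5 and 90.7, and Eif4g3 had 39.7 and 52.8. All neighbours in this order were apart, and Eif4g2 was 2.26 ± 0.504 times Eif4g1. With the highest transcript alone that ratio was 6.75, and Eif4g1 at 16.7 CPM/kb lay under Eif4g3 at 19.6. The cap-binding protein gene Eif4e had 143 and 213 CPM/kb, Eif4e2, which encodes a repressive cap-binding relative, had 89.6 and 122, and Eif4e3 had 6.01 and 12.2. The summed density of the 3 Eif4g genes over that of these 3 Eif4e genes was 1.14 in replicate 1 and 0.911 in replicate 2. The summed density of Eif4a1 and Eif4a2 was 3.74 ± 0.0847 times that of the Eif4g genes. It was 1.29 times with protein-coding transcripts alone and 2.34 times with the highest transcript alone.

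Of the proteins that sequester eIF4E, Eif4ebp2, the form known to dominate in brain, had 48.7 CPM/kb in replicate 1 and 58.1 in replicate 2. Eif4ebp1 had 13.6 and 7.52, from 9 and 14 footprints, and Eif4ebp3 had 1 footprint in all. Eif4enif1, which carries eIF4E into the nucleus, had 19.8 ± 2.37 CPM/kb.

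Eif5, which triggers GTP hydrolysis on eIF2, had 139 ± 8.77 CPM/kb, and Eif6, which keeps free large subunits from joining, had 159 ± 11.3. Eif5b, the GTPase that joins the subunits, had 24.6 and 27.1 CPM/kb on 3651 nucleotides of coding sequence. At the end of translation, Gspt1 (eRF3) had 92.3 ± 8.23 CPM/kb and Etf1 (eRF1), which reads the stop codon, had 64.7 ± 3.59, a ratio of Etf1 to Gspt1 of 0.706 ± 0.102 that turned to 1.56 with the highest transcript alone. Abce1, which splits the ribosome afterwards, had 54.6 ± 4.79. Pabpc1, the main poly(A)-binding protein of the cytosol, had 98.0 ± 7.05.

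Genes that modify, assist or regulate these factors were described from 4 lists. Hypusine formation on eIF5A needs Dhps and Dohh, which had coding densities of 67.1 ± 2.72 and 80.0 ± 7.25 CPM/kb, and the list with the diphthamide enzymes of eEF2 had a median of 34.7 CPM/kb over 8 genes, from Dph3 at 92.3 to Dph2 at 14.2. The 10 mitochondrial translation factors had a median of 16.9 CPM/kb, with Tufm, the mitochondrial counterpart of eEF1A, highest at 85.1 ± 1.07 and Mtrf1 lowest at 4.32 ± 0.101. Among 17 other cytosolic factors the median was 67.4 CPM/kb, from Tpt1 at 534 ± 102 to Secisbp2, which serves selenocysteine insertion, at 5.95 ± 1.07. Among 12 regulators the median was 25.0 CPM/kb, from Pdcd4, an inhibitor of eIF4A, at 109 ± 13.7 to Ppp1r15a, a stress-induced phosphatase subunit for eIF2, at 2.95 ± 0.724.

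The table assigns footprints to annotated transcripts of every class, and many factor genes have transcripts annotated as non-coding. Over all member genes, coding transcripts held 72.3% ± 1.08 of the footprints (SD, n = 2), retained introns 17.7% ± 0.124, the class called processed transcript 6.30% ± 0.490 and decay (NMD) targets 3.73% ± 0.718. Over all genes with a coding transcript these shares were 80.3% ± 1.12, 9.90% ± 0.418, 5.67% ± 0.291 and 4.12% ± 0.410. The median member had 8.22% of its footprints outside coding transcripts, and the median coding gene 9.26%. Over 50% lay outside in 8 of 65 members (12.3%) and in 10.6% of coding genes.

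Eif4a1 had the highest share, with 80.3% of its footprints outside its 1 coding transcript: 43.1% in replicate 1 and 40.1% in replicate 2 lay on 4 retained introns. Eef1b2 followed at 65.1%, mainly on 5 targets of nonsense-mediated decay (53.4% and 54.0%), and Eif2a at 63.4%. In Eef1a1, 49.5% and 48.4% lay on 4 retained introns. These transcripts share exons with the coding ones. Across 65 members the share of footprints outside coding transcripts followed the share of annotated transcripts that are non-coding, with a Spearman's rho of 0.971. Part of that value was fixed in advance. For the 27 members with coding transcripts only, neither share could vary, and a rho without them was not computed. The part of non-coding transcripts in these levels was not tested.

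**Figure D3:**
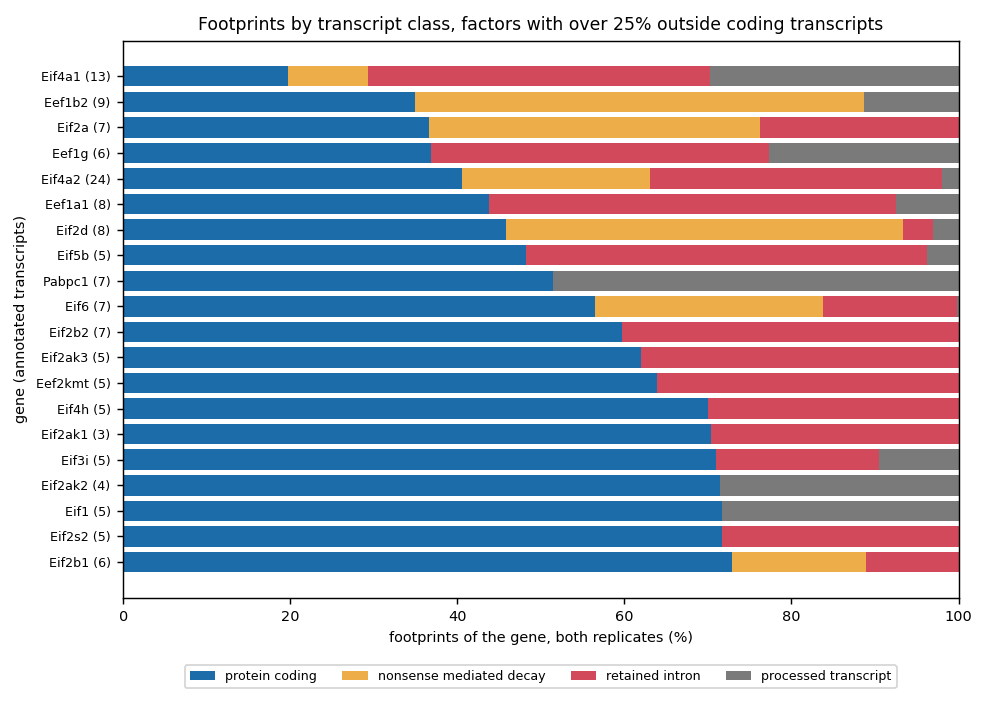
Share of each gene's footprints (%, both replicates summed) by annotated transcript class, for the 20 factors with over 25% outside coding transcripts; the number of annotated transcripts is in brackets. Eif4a1 has the smallest coding share and Eef1b2 the largest share on targets of nonsense-mediated decay.

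The replicate libraries were compared with an exact binomial test per gene, two-sided and on TMM-scaled library sizes, which asks whether 2 libraries differ beyond counting noise and says nothing of a condition. Of 65 members, 22 (33.8%) were called, 8 higher and 14 lower in replicate 2. Of the 16427 genes tested, 17.4% were called, 5.95% higher and 11.5% lower. The test covers counting noise only, so it calls smaller differences where counts are higher, and most members have high counts. With a mean count of at least 50 required, 21 of 60 members were called, beside 26.5% of 11057 genes. The members' median log2 ratio was 0.02, and that of all genes tested 0.01. The absolute log2 ratio was under 0.5 for 53 of 65 members. With edgeR's exact test and the common dispersion, 0 of 65 members passed, 4 had an unadjusted p under 0.05, and 0.067% of all genes were called.

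The members lower in replicate 2 were Eef1a1, Eef1a2, Eef2, Eif1ad, Eif1b, Eif4b, Eif4h and 7 of the 12 eIF3 subunits, Eif3a, Eif3c, Eif3d, Eif3f, Eif3g, Eif3h and Eif3k. Eef1a2 went from 520 CPM in replicate 1 (95% interval 487 to 553) to 341 in replicate 2 (325 to 357), a log2 ratio of -0.73 (exact binomial test, adjusted p 5.17e-33). Of 6 neuronal markers 4 were also called lower, with log2 ratios of -0.99 for Tubb3 and -0.81 for Stmn2. Map2 and Dcx were not called, at -0.06 and -0.03. Lower calls were not limited to neuronal genes. They included 4 of 5 red cell genes, 1 of 4 endothelial markers (Cldn5, -0.91) and 1 of 3 choroid plexus markers (Ttr, -1.20). Of 5 astrocyte markers 0 were called, and of 5 oligodendrocyte-lineage markers 2 were higher and 1 lower. From percentile 90 of coding density upwards, 51.5% of coding genes were called lower. The part of neuronal RNA in the Eef1a2 difference was not tested. Eef2 was at 727 and 540 CPM, a log2 ratio of -0.55, and Eef1a1 at 1908 and 1605, a log2 ratio of -0.38. Among eIF3 genes, Eif3k had the lowest log2 ratio, -0.57, and Eif3h had -0.55, with 203 CPM (183 to 225) against 152 (141 to 163). The lowest ratio among called members was that of Eif1ad, -0.86, with 88 and 148 footprints. Eif1b had -0.54, Eif3d -0.51, Eif4b -0.50, Eif3f -0.44, Eif3g -0.38, Eif3c -0.36, Eif3a -0.32 and Eif4h -0.22.

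The members higher in replicate 2 were Eif4a2, Eif4e, Eif4g1, Eif4g3, Eif2a, Eif2ak2, Eif2ak4 and Eef1d. Eif4a2 had 479 CPM in replicate 1 (95% interval 448 to 511) and 675 in replicate 2 (653 to 698), a log2 ratio of 0.37 (exact binomial test, adjusted p 1.26e-10). Eif4g1 had 301 and 423 CPM, also a log2 ratio of 0.37, and Eif4g3 had 0.28. Eif4e had 93.2 CPM (79.9 to 108) and 139 (129 to 150), a log2 ratio of 0.45, and Eef1d had 0.30. Eif2a had a log2 ratio of 0.63. The kinases had the highest ratios on the fewest footprints, 1.20 for Eif2ak2 (adjusted p 0.033) and 0.92 for Eif2ak4 (adjusted p 0.0118, both by the same test).

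These differences moved with the number of annotated transcripts and with density. Among 20 members with a single transcript, 11 were called lower and 0 higher, with a median log2 ratio of -0.37. Over the 3412 coding genes with a single transcript, 25.6% were called lower and 0.733% higher, with a median of -0.28. Among 32 members with 5 or more transcripts, 2 were called lower and 7 higher, with a median of 0.10; over 5689 such genes the shares were 5.34% and 13.5% and the median 0.15. In the 10% of coding genes with the highest density 51.5% were called lower, and 7 of the 17 members among them were. With the highest transcript of each gene alone, 11 of 64 members were called, beside 9.41% of the 15353 genes tested that way. All 11 were lower in replicate 2 and among the 14, and none of the 8 higher calls was left. Those 8 had fewer footprints or as many on that transcript. TMM scaling was recomputed in that setting, which moved the log2 ratio of Eef1a2, with unchanged counts, from -0.73 to -0.66. On that scaling all 8 log2 ratios were above 0. Those of Eef1d (0.06) and Eif4g3 (0.07) were no larger than this shift, so their direction was not settled. For Eif2a the ratio was 0.85 (22 and 117 footprints), for Eif4e 0.55 (42 and 180) and for Eif4g1 0.53 (59 and 249), each larger than over all transcripts. For the other 5 it was smaller, from 0.06 for Eef1d to 0.75 for Eif2ak2. Library totals in place of TMM dropped Eif3a, Eif3g and Eif4h from the lower calls, added Eif2d, Eif4e2 and Eif5a to the higher, and gave 11 of each. Under that scaling 19.0% of all genes were called, 11.5% higher and 7.47% lower. It moved the median log2 ratio of all genes tested to 0.13.

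**Figure D4:**
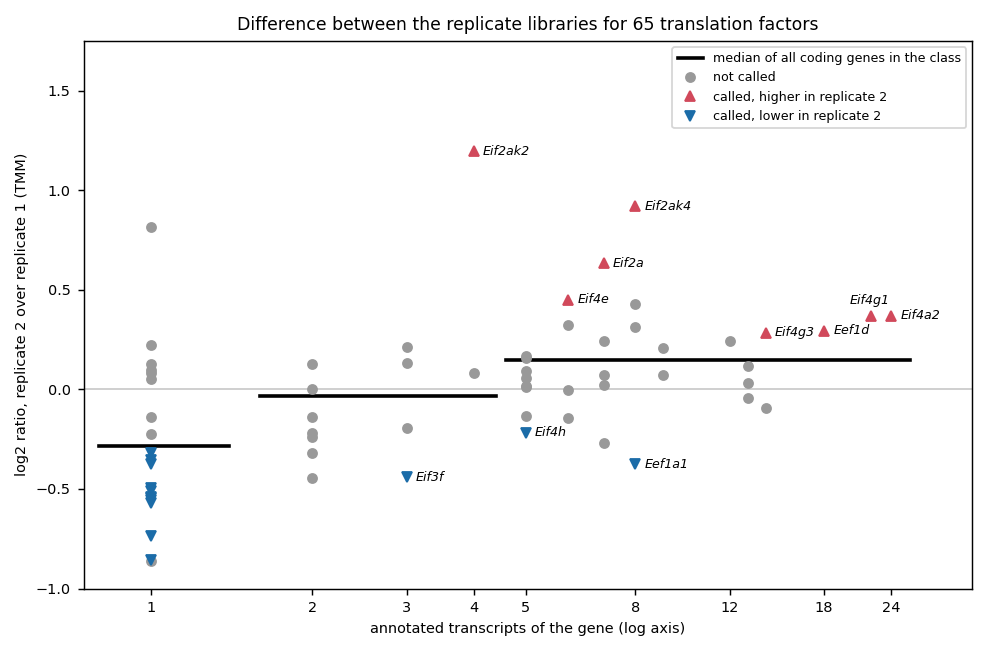
Log2 ratio of replicate 2 over replicate 1 (TMM scaling) against the number of annotated transcripts (log axis) for 65 factors. Triangles are genes called by the exact binomial test, pointing up where higher and down where lower in replicate 2, and black lines are medians of all coding genes with 1 (-0.28), 2 to 4 (-0.04) and 5 or more transcripts (0.15); 11 of the 14 lower calls are genes with a single transcript.

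By the same test 3 of the 17 other cytosolic factors were called higher and 2 lower, and 1 of the 12 regulators was called lower, beside 5.95% higher and 11.5% lower over all genes tested. Paip1 (log2 ratio 0.48) and Paip2 (0.35), which bind the poly(A)-binding protein, and Tpt1 (0.27) were higher in replicate 2. Ddx3x, an RNA helicase of initiation (-0.22), Abcf1 (-0.26) and Impact, an inhibitor of GCN2 in neurons (-0.48), were lower. None of the 10 mitochondrial factors and none of the 8 modifying enzymes was called.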

How the data were processed

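Ribosome-protected fragments of brain polysomes were measured in 2 control mice. The authors deposited whole-number footprint counts per transcript with annotated lengths and no normalization; the submitters' processing notes name Trimmomatic 0.36, Bowtie2 2.2.6, SAMtools and build GRCm38.p4. The counting tool, the annotation release, the use of strand and the handling of fragments that match several transcripts are not given in the sources used here. The members and lists were chosen with earlier results of these data known.

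Counts of a gene's transcripts were summed. Coding density is CPM divided by the coding length of the coding transcript with the highest mean count; since counts cover whole transcripts, it includes any fragments from untranslated regions. Errors are SDs over 2 animals. Folds from highest to lowest within a complex were taken from replicate means, and their SDs from the folds of the single replicates. Genes averaging 10 or more counts were compared between libraries by a two-sided exact binomial test on effective sizes from TMM (edgeR 4.0.16; factors 0.957 and 1.04), with Benjamini-Hochberg adjustment and a threshold of 0.05. With 1 group there is no contrast, so edgeR's quasi-likelihood test was not possible. Log2 ratios used a prior of 0.5 CPM. DESeq2 1.42.0 size factors were an alternative. The test was checked on simulated data. Every member with a mean count of at least 10 could be named. Values in both replicates were to be given for the extremes of each role, the listed paralogs and the called genes. Sequences are from RefSeq GRCm38.p6.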

Additional observations from a re-analysis of the deposited data

Results flagged for a closer look

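Processed pseudogenes named after the factors were outside the comparisons, since they have no coding transcript, and each had a level above the limit that a count of 0 allows in both libraries. Eif4a-ps4 had the highest mean level, 146 CPM (273 footprints in replicate 1 and 772 in replicate 2). Eif5al3-ps had 25.3 CPM, Eif1-ps1 19.3 CPM, Eif3s6-ps1 12.3 CPM, Eif3s6-ps2 5.66 CPM and Eif1-ps3 4.55 CPM. None of the 6 was called between the libraries by the exact binomial test. Whether these fragments came from the parent genes was not tested.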

How the results depend on the processing

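How a gene's transcripts were counted moved more results than any scaling or filter. Where fewer transcripts were counted, shares and densities are on the total of the transcripts kept. The median density of all coding genes was 25.8 CPM/kb with protein-coding transcripts alone and 25.0 with the highest transcript alone. It was 23.9 with all transcripts. With protein-coding transcripts alone the members' share was 1.105%, their median coding density 101 CPM/kb, the fold from highest to lowest 1.25 for eIF2B, 1.43 for eIF2 and 1.73 for eEF1B, and the paralog ratios 1.83 for Eef1a1 over Eef1a2 and 0.678 for Eif4a1 over Eif4a2. With the highest transcript alone the share was 1.085% and the median density 97.4 CPM/kb. In that setting 11 of 64 members were called, beside 9.41% of all genes tested. The folds were 3.58 for eIF3, 3.96 for eIF2B, 1.52 for eIF2 (with the order of its subunits turned) and 5.80 for eEF1B. The paralog ratios were 1.02 for Eef1a1 over Eef1a2, 2.80 for Eif4a1 over Eif4a2 and 6.17 for Eif5a over Eif5a2. The coding length weighted by footprints, chosen after the data were seen, gave a median density of 89.8 CPM/kb, folds of 3.75 for eIF3, 2.197 for eIF2 and 2.92 for eEF1B, and 5.47 for Eef1a1 over Eef1a2. Library totals moved the members' median log2 ratio from 0.02 to 0.15. Without a filter the median density was 81.7 CPM/kb. A minimum mean count of 50 moved the median share on non-coding transcripts to 9.18%. The exact test of edgeR, whose common dispersion comes from the very libraries compared, called 0 of 65 members, with 4 at an unadjusted p under 0.05.

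Single replicates gave median densities from 86.5 to 90.2 CPM/kb, folds from 3.56 to 3.69 for eIF3, and median non-coding shares from 7.41 to 8.43%. The 22 calls were kept by DESeq2 size factors, and 21 of them without a filter or with a minimum of 50, where Eif2ak2 was lost (with the higher minimum it was not tested). Over all genes tested the called share was 17.4% with DESeq2 size factors, 9.93% without a filter and 26.5% with a minimum of 50. The settings for the other ratios and for the order of neighbours were also added after the data were seen. Within the role groups, 30 pairs of neighbours in density were apart between replicates; the order turned in 5 of them with protein-coding transcripts alone and in 10 with the highest transcript alone, and in 0 with either other coding length. Depth limits Eif4e1b, Eif4ebp3, Eif4ebp1, Eef2kmt, Eif4e3 and Eif5a2 most, each with a mean count under 30. No paired analysis was possible because the 2 replicates form 1 group.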
